A study of Mus musculus with 34 samples.

Results

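Enzymes that make, salvage or destroy the building blocks of DNA were followed as mRNA through the first days of mouse development. The 9 genes were named by symbol: Rrm1, Rrm2, Tyms, Tk1, Dck, Dut, Samhd1, Cad and Umps. All 9 were found in every table, among 49686 gene symbols for zygotes and late 2-cell embryos and 51734 for blastocysts. Zygotes had received mRNA for wild-type (WT) CHK1 or for a CHK1 with the change R442Q. The study asked, by its title, how the transcriptome responds when the DNA damage checkpoint is disturbed. CHK1 is the kinase that this checkpoint uses to slow replication and delay mitosis.

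In all 34 embryos were measured: 11 zygotes (5 with WT and 6 with R442Q mRNA), 9 late 2-cell embryos (4 and 5) and 14 blastocysts (7 and 7). Zygotes and late 2-cell embryos are labelled as having no treatment, and all 14 blastocysts came from medium with a Chk1 inhibitor at 30 nM. Every group therefore came from zygotes injected with CHK1 mRNA, and none of the groups compared here was uninjected. The amount of CHK1 in the embryos was not examined here. The blastocyst effect of R442Q was measured only in the presence of the inhibitor, so stage and inhibitor cannot be told apart there. Each library was 1 embryo, without its zona pellucida, read by SMART-seq2 and Nextera chemistry. The labels do not tie embryos to mothers or injection days, so p-values measure the spread between these embryos only. A whole embryo was lysed, so fewer cells and less RNA per cell cannot be told apart.

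Dividing cells need all 4 deoxynucleotides in balance. Ribonucleotide reductase makes them from ribonucleotides with a large subunit that binds substrate and allosteric effectors (Rrm1) and a small subunit that carries the radical (Rrm2). In cycling somatic cells Rrm2 protein is the limiting and cell-cycle regulated subunit. CHK1 signalling is known to bear on reductase supply during replication stress. Tyms methylates dUMP to make thymidylate, and Dut makes its substrate by splitting dUTP, which also keeps uracil out of DNA. Tk1 and Dck are the salvage kinases for thymidine and for deoxycytidine and purine deoxynucleosides. Samhd1 cleaves deoxynucleoside triphosphates and so lowers the pool. Cad carries out the first steps of pyrimidine synthesis and Umps the last steps that give UMP. In early mouse embryos the first divisions run on stores laid down in the oocyte, and most embryonic transcription starts by the late 2-cell stage.

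The libraries held 7183632 to 11296522 estimated counts per zygote and 5727956 to 8916343 per late 2-cell embryo, and depth in counts is unknown for blastocysts. No pair of libraries was identical. The summed FPKM (fragments scaled to transcript length and library size) was 712234 to 742246 in WT and 814376 to 976830 in R442Q late 2-cell embryos, with no overlap. The marker lists did not set late 2-cell embryos fully apart from zygotes. The 5 oocyte markers summed to an FPKM of 4510 to 6140 in WT and 3180 to 4560 in R442Q zygotes, and to 1200 to 3100 in WT and 1630 to 6880 in R442Q late 2-cell embryos, so the R442Q embryos overlapped zygotes. The 6 markers of the 2-cell program summed to 80.9 to 223 in zygotes, 103 to 1390 in WT and 617 to 2740 in R442Q late 2-cell embryos, so here the WT embryos overlapped zygotes. In blastocysts the oocyte markers summed to at most 6.45 and all 6 trophectoderm markers were present. Of the 8 cumulus cell markers, which would show attached follicle cells, 0 reached a mean FPKM of 1 in zygotes and 1 did in late 2-cell embryos, with a sum of at most 21.8 in any embryo.

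Levels can be set between genes only per length, so the members were ordered by FPKM, with both injected mRNAs pooled at each stage. In zygotes Dut was the highest, with a mean FPKM of 301.5 ± 47.6 (SD, n = 11), above 97.5% of genes with a mean FPKM of at least 1. Rrm2 followed at 74.9 ± 8.97, Tk1 at 36.4 ± 10.97 and Samhd1 at 21.7 ± 6.81, the last 2 with overlapping zygotes. Tyms at 11.3 ± 6.40 and Rrm1 at 9.56 ± 2.50 did not differ beyond their spread. Umps at 3.34 ± 1.39, Dck at 2.31 ± 0.961 and Cad at 1.45 ± 1.01 stood lowest, also within each other's spread. The order differed between the injected mRNAs. In WT zygotes every Umps value, at 3.22 to 4.88, was above every Dck value, at 1.07 to 1.88, and in R442Q zygotes the mean of Dck, 2.96, was above that of Umps, 2.82. The mean of Tyms was above that of Rrm1 in WT (16.3 and 10.7) and below it in R442Q (7.07 and 8.63). That change of order depended on the unit: in CPM, which is not per length, the means of Tyms and Rrm1 were 10.8 and 39.5 in WT and 8.86 and 32.1 in R442Q. Tk1 and Samhd1 overlapped in R442Q zygotes and not in WT. The zygote thus held mRNA for dUTP removal and the small reductase subunit at high levels, and that of pyrimidine synthesis at low ones.

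In late 2-cell embryos Dut stayed first, at an FPKM of 403.3 ± 148 (SD, n = 9), ahead of Rrm2 at 143.4 ± 47.2. Tyms at 93.4 ± 47.1 and Tk1 at 84.1 ± 37.5 came next and overlapped. Samhd1 at 37.3 ± 16.2, Dck at 33.4 ± 9.92, Umps at 21.6 ± 6.64 and Rrm1 at 21.6 ± 12.5 formed a middle group whose ranges overlapped, and Cad was lowest at 4.38 ± 3.26. The order was not the same in the separate groups. In WT the mean FPKM of Tk1, 86.1, was above that of Tyms, 61.5, and in R442Q Tyms at 118.9 was above Tk1 at 82.4. Rrm1 was at 30.1 in WT, beside Samhd1 at 29.3, and at 14.7 in R442Q, where only Cad was lower. In blastocysts 4 genes were level at the top within their spread. These were Rrm2 at 405.4 ± 128 (SD, n = 14), Dut at 344.1 ± 83.0, Tk1 at 332.8 ± 103 and Tyms at 300.2 ± 55.7, all above 95.0% or more of genes at that stage. Rrm1 followed at 88.5 ± 19.9, Umps at 33.7 ± 17.0, Samhd1 at 20.1 ± 9.13, Dck at 12.6 ± 5.54 and Cad at 8.13 ± 5.79.

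**Figure D1:**
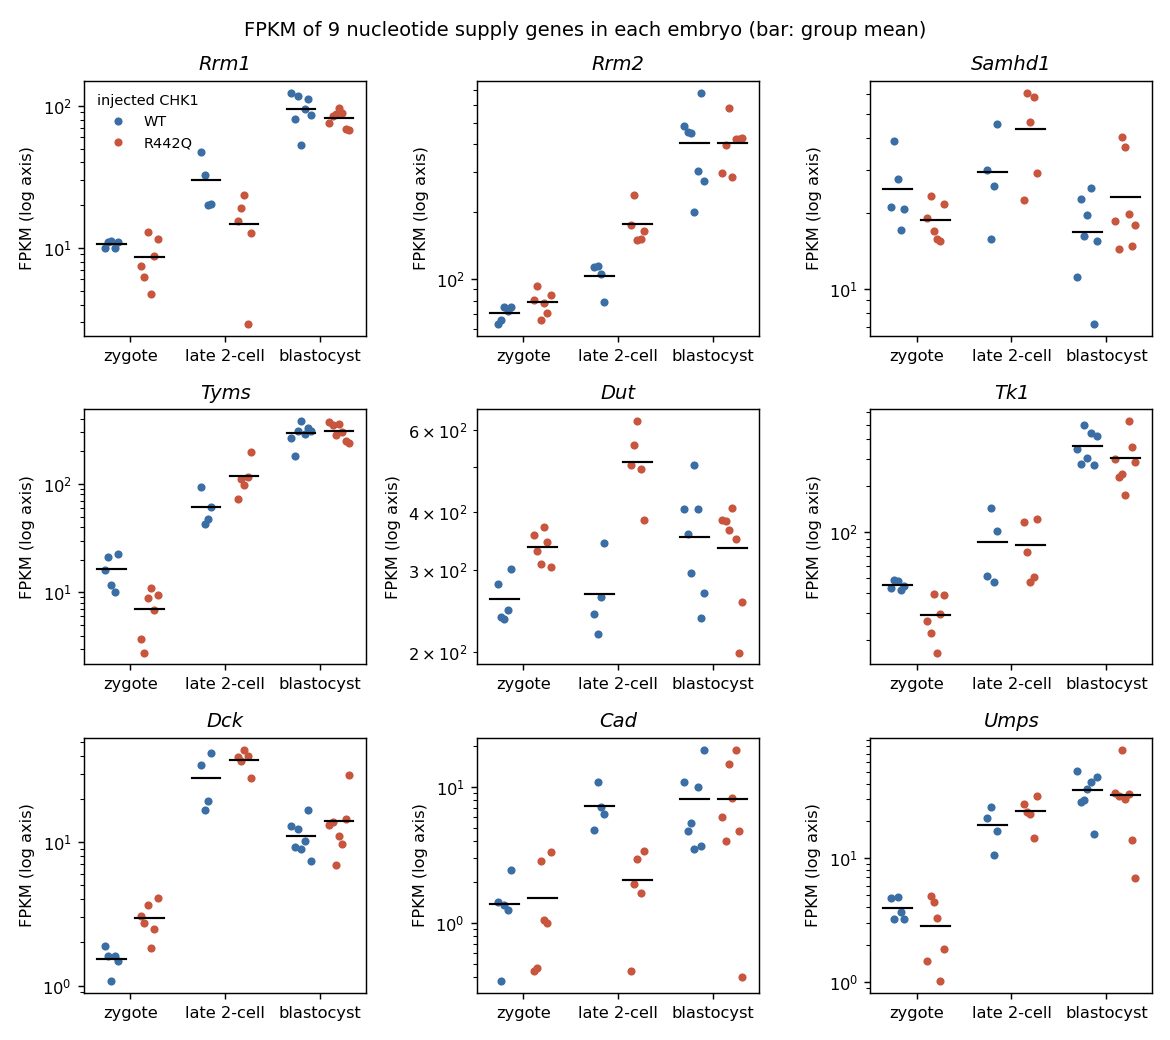
FPKM of each of the 9 genes (log axis) in each embryo by stage, with WT in blue and R442Q in red and a bar at the group mean. Rrm1, Rrm2, Tyms and Tk1 stand highest in blastocysts, Dck is highest in late 2-cell embryos, and Dut lies between 199.0 and 627.1 throughout.

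The FPKM tables were normalised separately, so levels across stages are given as a description without a test. Rrm1, Rrm2, Tyms and Tk1 were higher in every blastocyst than in every late 2-cell embryo with the same injected mRNA. Their mean FPKM ratios of blastocyst over late 2-cell were 3.17, 3.94, 4.78 and 4.23 in WT, and 5.53, 2.30, 2.58 and 3.66 in R442Q. Dck went the other way, with ratios of 0.394 in WT and 0.373 in R442Q. The highest WT blastocyst, at an FPKM of 16.65, was just below the lowest WT late 2-cell embryo, at 16.67, and R442Q embryos overlapped. Samhd1 gave ratios of 0.576 and 0.534, with overlap in both. Dut gave 1.33 in WT and 0.653 in R442Q. The summed FPKM of all genes was 979070 to 1164489 in WT and 1051017 to 1156313 in R442Q blastocysts. Both lie above the late 2-cell sums, 712234 to 742246 in WT and 814376 to 976830 in R442Q. The ratios were not corrected for these sums, which raise them in both genotypes.

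Zygotes and late 2-cell embryos both had counts, so their difference was tested with edgeR's quasi-likelihood test in a model of 4 groups. Stage and table cannot be told apart in it. Of the 9 members 7 rose in WT embryos and 0 fell, where 36.2% of 16199 tested genes rose and 25.0% fell. In R442Q embryos 7 rose and 0 fell, against 35.3% of genes risen and 29.8% fallen. The median log2 fold change of the members was 1.17 in WT and 1.34 in R442Q, and that of all genes 0.34 and 0.22. Scaling by median ratios (RLE) in place of trimmed means moved the median of all genes in R442Q embryos to 0.34. With trends on transcript length and GC content taken out of each library, an alternative added after the data were seen, the median of all genes was -0.02 in WT, with 4997 genes risen and 4897 fallen in place of 5870 and 4050, and 0.15 in R442Q. Without single embryos it ran from 0.16 to 0.40 in WT and from 0.085 to 0.25 in R442Q.

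Among the reductase subunits and Samhd1, the rises were modest. Rrm1 went from 37.4 to 42.1 counts scaled to library size (CPM) in WT zygotes to 54.8 to 134.5 in WT late 2-cell embryos, without overlap. The log2 value was 1.17 ± 0.37 (SE, edgeR adjusted p = 0.0081). In R442Q embryos it was 15.6 to 44.6 CPM and then 11.9 to 60.6, a log2 value of 0.21 ± 0.33 (edgeR adjusted p = 0.586). Whether the change of Rrm1 differed between the injected mRNAs did not pass its own test (log2 difference -0.96, edgeR adjusted p = 0.234). Without late 2-cell WT replicate 1 or 2 the WT rise of Rrm1 missed the threshold, at 0.83 (edgeR adjusted p = 0.0749) and 0.92 (0.0513).

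Rrm2 gave 0.50 ± 0.19 in WT (edgeR adjusted p = 0.03) and 0.96 ± 0.18 in R442Q (4.68e-05). The WT call was weak: it was lost in 16 of the 20 fits that left out 1 embryo, with log2 values of 0.26 to 0.45 in those fits and an adjusted p up to 0.308. It was lost too, at 0.18 (edgeR adjusted p = 0.496), with the length and GC trend taken out. Samhd1 rose in R442Q embryos by a log2 of 0.78 ± 0.28 (edgeR adjusted p = 0.0185), lost at 0.71 (0.052) with the description numbers as a block, and gave -0.08 ± 0.31 in WT (0.842). The difference of these changes did not pass (log2 0.86, edgeR adjusted p = 0.211).

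For thymidylate, Tyms rose from 8.03 to 13.8 CPM in WT zygotes to 30.1 to 58.6 in WT late 2-cell embryos, without overlap. The log2 fold change was 1.97 ± 0.34 (edgeR adjusted p = 3.04e-05), and in R442Q embryos it was 2.97 ± 0.32, or 7.86-fold (2.36e-08). Dut, already the most abundant per length, did not pass in either, at -0.11 ± 0.18 in WT (edgeR adjusted p = 0.59) and 0.32 ± 0.16 in R442Q (0.0804). The R442Q value of Dut passed with RLE scaling, at 0.44 (edgeR adjusted p = 0.0199), and turned to -0.08 (0.729) without the length and GC trend. That alternative also put the WT value of Dut past the threshold as a fall, at -0.63 (edgeR adjusted p = 0.0108).

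The salvage kinases differed in size. In the edgeR fit Dck rose from 2.998 to 4.93 CPM in WT zygotes to 49.7 to 128.3 CPM in WT late 2-cell embryos, or 19.1-fold, a log2 of 4.26 ± 0.32 (edgeR adjusted p = 1.35e-10). In R442Q embryos Dck rose 11.8-fold (edgeR adjusted p = 1.59e-10). Tk1 rose by 1.09 ± 0.36 in WT (edgeR adjusted p = 0.0108) and 1.34 ± 0.32 in R442Q (0.000921). The WT rise of Tk1 missed the threshold without late 2-cell WT replicate 2 (0.54, edgeR adjusted p = 0.212) and without the length and GC trend (0.48, 0.286).

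Both genes of pyrimidine synthesis rose. Umps rose 4.57-fold in WT embryos (log2 2.19 ± 0.39, edgeR adjusted p = 3.83e-05) and 7.52-fold in R442Q (2.91 ± 0.36, 2.19e-07). Cad went from 1.26 to 3.84 CPM in WT zygotes to 31.8 to 73.0 CPM in WT late 2-cell embryos, a 17.9-fold rise (log2 4.16 ± 0.52, edgeR adjusted p = 3.34e-07). In R442Q embryos Cad rose 3.65-fold (1.87 ± 0.44, edgeR adjusted p = 0.000729).

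The size of the Cad and Tyms changes over stages depended on the unit. Count, FPKM and library total together give the gene length that the deposited FPKM implies. For Cad that length was 1306 to 3728 bases in WT zygotes and 5636 to 7328 in WT late 2-cell embryos, and the WT rise was 17.9-fold in the edgeR fit but 5.32-fold in mean FPKM. In R442Q embryos it was 1223 to 6328 bases in zygotes and 2795 to 7237 in late 2-cell embryos, and the Cad rise was 3.65-fold in the edgeR fit but 1.36-fold in mean FPKM, with the stages overlapping. For Tyms it was 626 to 847 bases in WT zygotes and 934 to 2324 in R442Q zygotes, with no overlap, and the R442Q rise was 7.86-fold in the edgeR fit but 16.8-fold in mean FPKM. For Rrm2 it stayed between 1934 and 2095 bases in all 20 embryos.

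**Figure D2:**
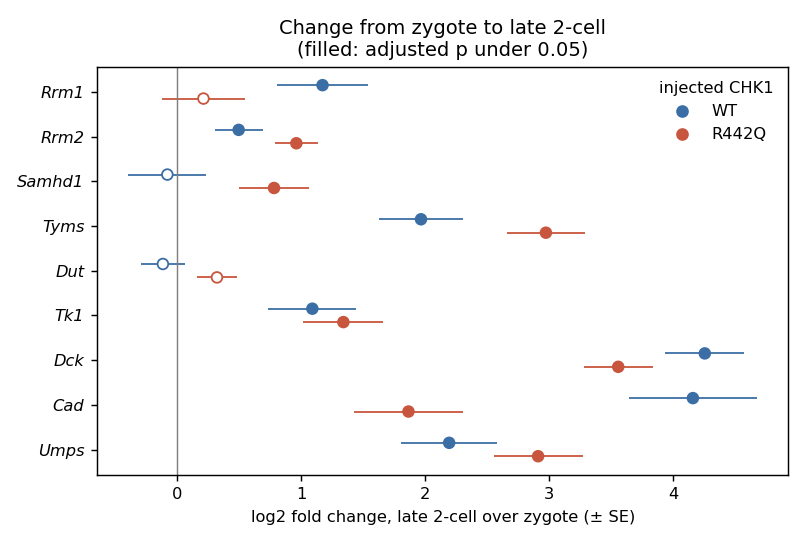
Log2 fold change of late 2-cell embryos over zygotes for each gene, with its standard error, for WT (blue) and R442Q (red) embryos, filled where the edgeR adjusted p was under 0.05. Dck and Cad lie farthest right in WT, at 4.26 and 4.16, and Dut has open points for both, at -0.11 and 0.32.

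The first comparison of genotypes, in zygotes, found 2 of the 9 members higher in R442Q and 0 lower, where 13.2% of 12420 tested genes passed in either direction. The members were Dut and Dck. The median log2 fold change of the 9 was -0.17, and that of all genes 0.01. Other measures moved with genotype in zygotes too. The summed oocyte markers, given above, had a median FPKM of 4820 in WT and 4100 in R442Q zygotes. The TMM scaling factors of the libraries were 1.02 to 1.10 in WT and 0.910 to 0.998 in R442Q, with no overlap. Their part in the members' values was not tested.

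Dut was at 276.0, 234.6, 238.3, 251.4 and 310.2 CPM in WT zygotes 1 to 5. In R442Q zygotes 1 to 6 it was at 401.4, 350.5, 324.2, 389.5, 372.8 and 315.7 CPM. Every R442Q zygote was above every WT zygote, by a narrow margin between R442Q replicate 6 and WT replicate 5. The rise was 1.37-fold, a log2 of 0.45 ± 0.11 (SE, edgeR adjusted p = 0.0103), and it held without any 1 zygote (edgeR adjusted p 0.00733 to 0.0328). In the model of 4 groups, which shares 1 spread estimate with late 2-cell embryos, the value was 0.49 and did not pass (edgeR adjusted p = 0.151). With the numbers in the sample descriptions as a block it was 0.42 and missed the threshold (edgeR adjusted p = 0.0541). Dut was the 1 member of 9 whose genotypes did not overlap, where 8.71% of tested genes did not.

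Dck, the deoxycytidine kinase, was at 4.93, 3.14, 2.998, 4.64 and 4.32 CPM in WT zygotes. In R442Q zygotes it was at 9.36, 8.44, 9.67, 4.76, 7.66 and 11.2 CPM. All but R442Q replicate 4 were above all WT zygotes. The rise was 2.13-fold, with a log2 of 1.09 ± 0.28 (SE, edgeR adjusted p = 0.0169) and an adjusted p of 0.00841 to 0.0486 when each zygote was left out. The call was lost on the FPKM scale, where limma gave 0.63 (adjusted p = 0.0581). It was lost too with replicate numbers as a block, at 0.98 (edgeR adjusted p = 0.08) with those of the titles and 1.04 (0.0559) with those of the descriptions.

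The other 7 members did not pass in zygotes. Rrm2 gave a log2 of 0.28 ± 0.12 (edgeR adjusted p = 0.13) and Rrm1 -0.30 ± 0.22 (0.431). Rrm1 was tight in WT zygotes, at 37.4 to 42.1 CPM, and spread from 15.6 to 44.6 CPM in R442Q zygotes. Tk1 had the same form, with 45.3 to 50.1 CPM in WT and 22.1 to 50.8 in R442Q, at a log2 of -0.40 ± 0.18 (edgeR adjusted p = 0.166). R442Q replicate 4 was the lowest zygote for both genes.

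Tyms gave -0.28 ± 0.28 (edgeR adjusted p = 0.577), Samhd1 -0.17 ± 0.20 (0.643), Umps -0.38 ± 0.34 (0.529) and Cad 0.33 ± 0.40 (0.656). On the FPKM scale 2 of the 7 passed as lower in R442Q, Tyms at -1.16 (limma adjusted p = 0.0224) and Tk1 at -0.70 (0.0276). On that scale 13.9% of 11849 genes passed, and 10.4% passed as lower. The lengths implied for Tyms differ between the genotypes, as given above, and their part in the FPKM result was not tested.

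At the late 2-cell stage the members' log2 values spread further apart than in zygotes. Every member also had a larger SE, at 0.27 to 0.52 against 0.11 to 0.40 in zygotes. The spread of fold changes over all genes was not compared. Of the 9, 0 passed the threshold, where 4.18% of 13883 genes did. Unadjusted, 5 members had a p under 0.05, as did 2910 of all genes, and DESeq2 called 3 (Rrm2, Dut and Cad), where it called 14.5% of the 12696 genes it gave an adjusted p. The genotypes did not overlap for 3 of 9 members, Dut and Rrm2 higher and Cad lower in R442Q, where 12.0% of tested genes did not overlap. The median log2 fold change was 0.48 for the members and 0.07 for all genes. Of the 580 genes called, 170 were higher and 410 lower, and 72 higher and 64 lower with the length and GC trend taken out.

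Dut was at 220.9, 216.3, 254.7 and 341.8 CPM in WT late 2-cell embryos 1 to 4. In R442Q embryos 1 to 5 it was at 555.6, 546.9, 547.2, 491.9 and 393.8 CPM. All 5 R442Q embryos were above all 4 WT embryos. The log2 value was 0.97 ± 0.27 (SE, edgeR adjusted p = 0.0601). The dUTPase therefore had its genotypes apart, with R442Q higher, at both early stages, though in these fits by stage it passed the test only in zygotes. Its difference between the stages did not pass (log2 0.44, edgeR adjusted p = 0.268). DESeq2 gave 0.96 (adjusted p = 0.00303), and edgeR without R442Q replicate 3 gave 0.95 (0.0472). The other 8 fits that left out 1 embryo missed the threshold (edgeR adjusted p 0.0567 to 0.199).

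Cad, the multifunctional enzyme that starts pyrimidine synthesis, was at 31.8, 73.0, 38.7 and 43.5 CPM in WT embryos. In R442Q embryos it was at 3.52, 14.4, 7.66, 12.3 and 25.9 CPM. All 5 R442Q embryos were below all 4 WT embryos, and R442Q replicate 1 stood at the level of zygotes. The log2 value was -1.87 ± 0.52 (SE, edgeR adjusted p = 0.057). It was past the threshold without R442Q replicate 5 (-2.29, edgeR adjusted p = 0.0307), with no filter on low counts (-1.93, 0.0153) and with DESeq2 (-1.90, adjusted p = 0.00602). In the other 8 fits that left out 1 embryo Cad missed the threshold (edgeR adjusted p 0.0712 to 0.188).

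Cad has the longest transcript of the 9, at 7137 bases, and the highest GC content, at 57.4%, where the median of all annotated symbols is 1284 bases and 47.1%. With the trends on length and GC content taken out of each library, an alternative chosen after the data were seen, its value shrank to -0.73 ± 0.50 (edgeR adjusted p = 0.555). The same step left Dut at 0.85 (edgeR adjusted p = 0.206) and Rrm2 at 0.55 (0.464).

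**Figure D3:**
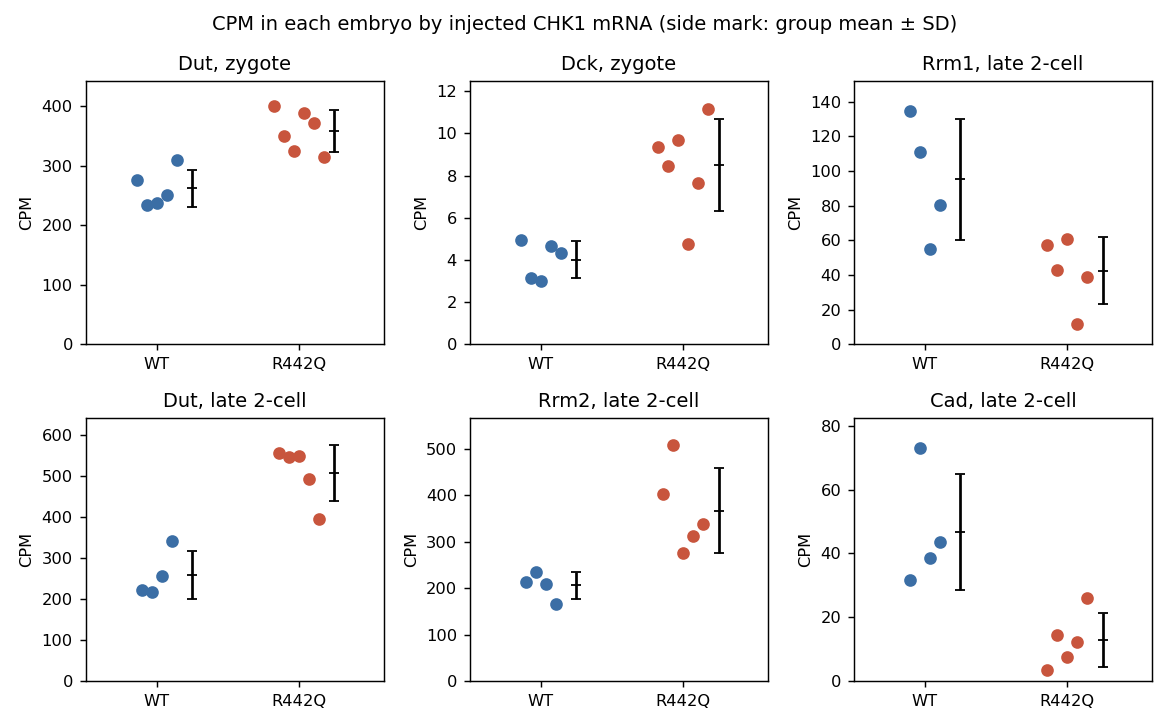
CPM in each embryo for Dut and Dck in zygotes and for Rrm1, Dut, Rrm2 and Cad in late 2-cell embryos, with the group mean ± SD at the side and axes from 0. WT (blue) and R442Q (red) do not overlap for Dut at either stage or for Rrm2 and Cad in late 2-cell embryos.

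The subunits of ribonucleotide reductase lay on opposite sides of 0 at this stage. Rrm2 was at 214.2, 235.9, 208.6 and 166.5 CPM in WT late 2-cell embryos and at 402.5, 508.4, 276.3, 311.8 and 337.9 CPM in R442Q. All R442Q embryos were above all WT embryos, with a log2 value of 0.83 ± 0.28 (SE, edgeR adjusted p = 0.105). Rrm1 was at 134.5, 111.1, 54.8 and 80.3 CPM in WT and at 57.0, 43.1, 60.6, 11.9 and 38.9 CPM in R442Q. Only WT replicate 3 fell within the R442Q range, which reached lowest in R442Q replicate 4, and the log2 value was -1.17 ± 0.43 (SE, edgeR adjusted p = 0.134). In the model of 4 groups both passed, Rrm2 at 0.78 (edgeR adjusted p = 0.00933) and Rrm1 at -1.23 (0.0251). That model also put Dut at 0.92 (edgeR adjusted p = 0.00133) and Cad at -1.93 (0.00751) past the threshold. The 4 of 9 members called there stand against 15.5% of 16199 genes in the same fit.

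The FPKM ratio of Rrm2 to Rrm1 shows the same values embryo by embryo. It was chosen after the values of both genes were seen and is given without a test. In WT late 2-cell embryos it was 2.41, 3.51, 5.24 and 3.89, and in R442Q embryos 11.2, 12.6, 6.36, 52.4 and 12.8. The lowest R442Q embryo was above the highest WT embryo, and R442Q replicate 4, with its low Rrm1, stood far above the others. Its size depended on the unit. The length implied for Rrm1 was 2205 to 3982 bases in R442Q late 2-cell embryos, with replicate 4 at the upper end. The ratio of Rrm2 CPM to Rrm1 CPM, which is not per length, was 26.1 in that embryo, 4.56 to 11.8 in the other R442Q embryos and 1.59 to 3.81 in WT, without overlap. By FPKM, in zygotes the ratio was 5.96 to 7.17 in WT and 5.05 to 16.4 in R442Q, and in blastocysts 3.18 to 6.08 in WT and 2.94 to 6.61 in R442Q, so the genotypes overlapped at both.

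**Figure D4:**
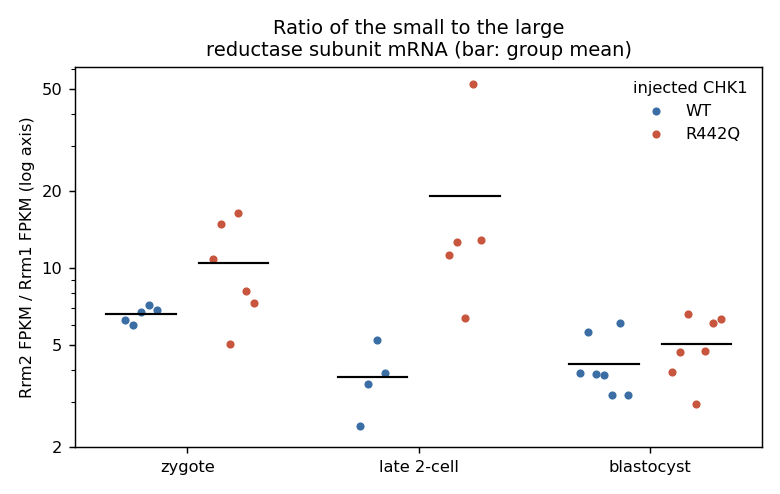
Ratio of Rrm2 FPKM to Rrm1 FPKM in each embryo (log axis) by stage, WT in blue and R442Q in red, with a bar at the group mean. The genotypes are apart only in late 2-cell embryos, where WT spans 2.41 to 5.24 and R442Q 6.36 to 52.4.

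The promoter letters of the reductase genes and Cad are shown because these genes lay on opposite sides in R442Q late 2-cell embryos. Each run below is positions -120 to -21 from the RefSeq start (GRCm38.p6), 5′ to 3′ on the gene's own strand, which is plus for all 3, with CCAAT, the core letters bound by NF-Y, in capitals. Rrm1 is at chr7:102441575-102441674, Rrm2 at chr12:24708134-24708233 and Cad at chr5:31054660-31054759.
Rrm1: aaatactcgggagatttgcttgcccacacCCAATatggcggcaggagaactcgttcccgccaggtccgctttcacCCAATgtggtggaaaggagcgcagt
Rrm2: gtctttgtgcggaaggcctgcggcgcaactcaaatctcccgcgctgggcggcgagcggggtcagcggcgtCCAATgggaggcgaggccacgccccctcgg
Cad: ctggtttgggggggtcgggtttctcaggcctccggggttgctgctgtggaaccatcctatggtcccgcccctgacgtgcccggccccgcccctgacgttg

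CCAAT stood at positions -91 to -87 and -45 to -41 of Rrm1 and -50 to -46 of Rrm2, and the window of Cad held none. It was searched on both strands of the 250 bases before each start, and 2 of 9 members held it, against 33.8% of 32851 promoters. The E2F octamers TTTCCCGC, TTTGGCGC, TTTCGCGC and TTTGCCGC were in 0 of 9 members and in 1.86% of promoters. The letters TTTGAA of the cell-cycle element CHR were in 2 members, Dck and Umps, and in 16.0% of promoters. A match of letters is a description of these windows only, and a link to the members' values was not tested.

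The other members at the late 2-cell stage had wide, overlapping groups. Tyms was at 30.1 to 58.6 CPM in WT and 49.6 to 127.7 in R442Q, a log2 of 0.81 ± 0.35 (edgeR adjusted p = 0.196). Samhd1 was at 34.5 to 91.7 CPM in WT and 56.2 to 129.2 in R442Q, at 0.76 ± 0.37 (edgeR adjusted p = 0.255). Dck, at 0.48 ± 0.33 (edgeR adjusted p = 0.445), and Umps, at 0.44 ± 0.35 (0.512), had means above WT as well. Tk1 gave -0.05 ± 0.44 (edgeR adjusted p = 0.97), with embryos from 49.8 to 185.2 CPM, and turned to 0.29 without the length and GC trend (0.838). Its exons overlap Afmid on the opposite strand, and those of Umps overlap Gm15829. The use of strand in counting is not given in the sources used here, so reads of each pair cannot be told apart.

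Other measures moved with genotype at this stage. The 6 markers of the 2-cell program summed to an FPKM of 103 to 1390 in WT and 617 to 2740 in R442Q embryos, and the 5 oocyte markers to 1200 to 3100 and 1630 to 6880. The 8 cumulus markers summed to 1.71 to 7.61 and 2.45 to 21.8, with 3 of the 8 at 0 in all embryos of each group. The summed FPKM did not overlap, as given above. Genes with an FPKM of at least 1 numbered 13049 to 14210 in WT and 11984 to 16211 in R442Q embryos. With the number of detected genes as a covariate, Dut stayed at 0.96, Cad at -1.87 and Rrm2 at 0.74. The part of the marker differences in the members' values was not tested.

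In blastocysts, all with inhibitor, 0 of 9 members passed in limma, where 0.00885% of 11297 genes did (1 gene, with 836 at an unadjusted p under 0.05). Without single blastocysts 0 to 30 genes passed, and the 30 came without WT replicate 7. All 9 members overlapped between genotypes, and 0.416% of tested genes did not. The median log2 value of the members was -0.07 and that of all genes -0.10. Of the blastocysts, R442Q replicate 7 stood apart with 8189 genes at an FPKM of at least 1, where the other 6 R442Q blastocysts had 10962 to 12182 and WT had 9852 to 12191. It also held the lowest Cad (FPKM 0.40) and Umps (6.88) and the highest Dck (29.2) of all 14. Without it limma gave 0.05 for Dck, 0.21 for Cad and -0.04 for Umps, and 0 members passed.

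Rrm1 had a lowest, median and highest FPKM of 52.6, 95.3 and 123.8 in WT and 67.4, 84.3 and 97.2 in R442Q. The log2 value, on the log2(FPKM + 1) scale, was -0.19 ± 0.20 (SE, limma adjusted p = 0.89). Rrm2 was at 200.3, 451.4 and 680.6 in WT and 286.2, 421.3 and 578.4 in R442Q, at 0.06 ± 0.25 (limma adjusted p = 0.976). Dut was at 236.3, 358.4 and 503.6 in WT and 199.0, 365.4 and 406.9 in R442Q, at -0.07 ± 0.21 (limma adjusted p = 0.967). Neither the ratio of the reductase subunits nor Dut separated the genotypes here, in contrast to the earlier late 2-cell embryos, though the difference between these stages was not tested.

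Cad spanned 3.49, 5.43 and 18.8 in WT and 0.40, 5.99 and 18.9 in R442Q, with a log2 value of -0.18 ± 0.54 (limma adjusted p = 0.967). Its coefficient of variation was 68.3% in WT and 79.4% in R442Q. Samhd1 gave 0.43 ± 0.33 (limma adjusted p = 0.83), Tk1 -0.32 ± 0.23 (0.819), Umps -0.34 ± 0.41 (0.905), Dck 0.24 ± 0.32 (0.908) and Tyms 0.07 ± 0.18 (0.96). Trophectoderm markers summed to an FPKM of 3200 to 24300 in WT and 1250 to 12900 in R442Q blastocysts, and epiblast markers to 58.5 to 203 and 35 to 135. Their part in these values was not tested.

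**Figure D5:**
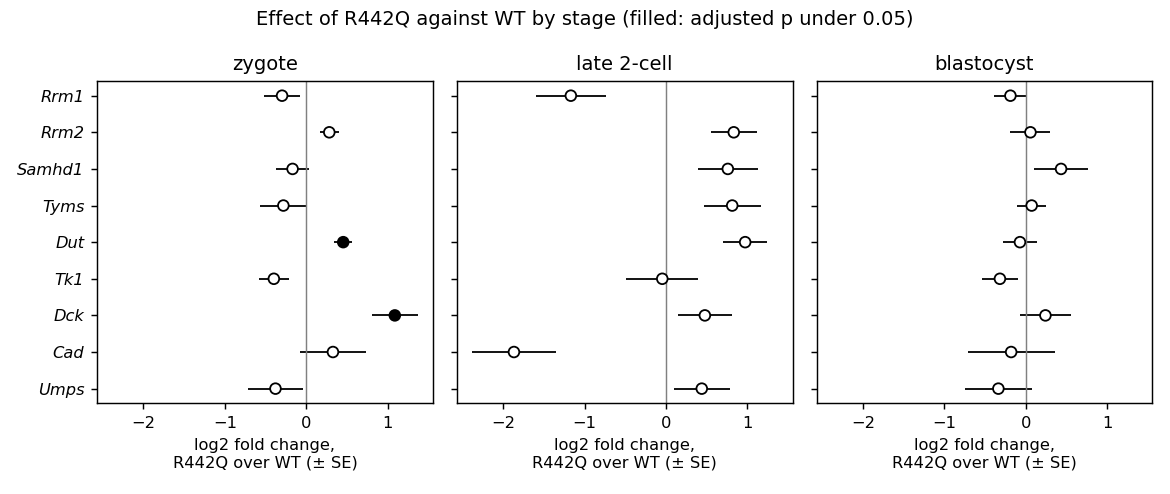
Log2 fold change of R442Q over WT with its standard error for each gene in zygotes, late 2-cell embryos (both edgeR) and blastocysts (limma), filled where the adjusted p was under 0.05. Dut (0.45) and Dck (1.09) are filled in zygotes, late 2-cell embryos show the widest spread, from -1.87 for Cad to 0.97 for Dut, and no gene is filled in blastocysts.

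Whether the R442Q effect differed between zygotes and late 2-cell embryos was tested as an interaction. Of the 9 members 1 passed, Cad, where 10.1% of 16199 genes did. The effect on Cad was a log2 of 2.29 ± 0.65 lower in late 2-cell embryos than in zygotes (-2.29, edgeR adjusted p = 0.0267). The call was lost without late 2-cell WT replicate 2 (-1.84, edgeR adjusted p = 0.107), the embryo with the highest Cad. It was lost also without zygote WT replicate 2 (-1.998, 0.0748) and without zygote R442Q replicate 1, 3, 5 or 6 (-2.16 to -2.06, adjusted p 0.0541 to 0.0605). With the length and GC trend taken out it fell to -1.19 (edgeR adjusted p = 0.305), and with detected genes as a covariate it was -2.42 (0.0564).

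The other 8 did not pass, from Rrm1 at -0.96 (edgeR adjusted p = 0.234) to Tyms at 1.01 (0.17). The median over all genes was -0.16, and -0.01 with RLE scaling. Of the genes called over the table, 497 were positive and 1142 negative. These counts were 707 and 917 with RLE scaling and 495 and 441 with the length and GC trend taken out.

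Around the members, 4 lists of nucleotide genes, chosen with results of these data known, give the wider pathway. Their counts in zygotes stand against the 13.2% of all genes tested that passed. In zygotes the list of other deoxynucleotide enzymes had 0 higher and 2 lower of 11 tested in R442Q. These were Dtymk, the kinase that phosphorylates the thymidylate made by Tyms and Tk1, at -0.83 ± 0.18 (SE, edgeR adjusted p = 0.00679), and mitochondrial Tk2, at -0.54 ± 0.13 (0.0136). The mean of Dtymk was 28.6 ± 6.22 CPM (SD, n = 5) in WT and 16.1 ± 2.79 (SD, n = 6) in R442Q zygotes. The folate cycle, which feeds Tyms, had 2 of 5 higher, Shmt2 at 0.52 ± 0.13 (edgeR adjusted p = 0.0161) and Mthfd2 at 0.33 ± 0.09 (0.0296). The list of other pyrimidine enzymes had 2 of 8 higher, the uridine kinase family gene Uckl1 at 0.75 ± 0.19 (edgeR adjusted p = 0.0145) and Dhodh at 0.48 ± 0.15 (0.0462). Purine synthesis and salvage had 2 higher, Ppat and Hprt, and 1 lower of 14. Gmps, which makes GMP, was the lower one, at -1.24 ± 0.20 (edgeR adjusted p = 0.00101). Gmps passed in every alternative and without any 1 zygote. Its adjusted p (edgeR or limma) was at most 0.0288, the replicate block by title not counted in that value. Each of the other 8 named was lost under at least 1 alternative, with a largest adjusted p from 0.113 (Ppat) to 0.703 (Tk2). Without single zygotes Dhodh (up to 0.117), Mthfd2 (0.0839) and Hprt (0.0542) were lost as well.

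At the late 2-cell stage 1 of 42 list genes passed, where 4.18% of all genes did. It was uridine phosphorylase Upp1, with 16.0 ± 6.56 CPM (SD, n = 4) in WT and 56.3 ± 13.6 (SD, n = 5) in R442Q embryos. Its log2 value was 1.81 ± 0.39 (SE, edgeR adjusted p = 0.0197). The call was lost without WT replicate 1, 2 or 4 (edgeR adjusted p up to 0.0799), without the length and GC trend (1.58, 0.0754) and with either replicate block (up to 0.162). In blastocysts 0 of 40 list genes tested passed. In the interaction Gmps at 2.34 ± 0.44 (edgeR adjusted p = 0.00168), Dtymk at 1.37 ± 0.40 (0.0321) and Adss at 0.90 ± 0.27 (0.0344) had a more positive effect in late 2-cell embryos, and Impdh1 a more negative one, where 10.1% of all genes passed. Gmps passed in every alternative (adjusted p at most 0.0144, the replicate block by title not counted in that value). The calls of Dtymk (edgeR adjusted p up to 0.234) and Adss (0.0805) were lost under some alternatives and without some single embryos. That of Impdh1 was lost in most of the fits that left out 1 embryo (edgeR adjusted p up to 0.203). It was lost too with RLE scaling, with both replicate blocks and without the length and GC trend.

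From zygote to late 2-cell the shares of all genes were those given for the members, 36.2% risen and 25.0% fallen in WT and 35.3% and 29.8% in R442Q. Purine genes had a median log2 of 4.91 in WT, with 10 of 15 risen and 4 fallen. In R442Q embryos 10 of 15 had risen and 3 fallen, at a median of 2.49. Impdh2, the first enzyme of guanine nucleotide synthesis, rose by a log2 of 7.86 ± 0.45 in WT (SE, edgeR adjusted p = 2.42e-12) and 6.84 ± 0.39 in R442Q (1.31e-12). Other deoxynucleotide enzymes had 7 of 13 risen in both, with 3 fallen in WT and 4 in R442Q. The nucleoside diphosphate kinase Nme2 rose by 7.25 ± 0.54 in WT (SE, edgeR adjusted p = 1.26e-10) and 7.60 ± 0.50 in R442Q (8.97e-12). Ppat and Prps1, which open purine synthesis, rose by 7.29 ± 0.50 and 8.65 ± 0.62 in WT (edgeR adjusted p = 3.42e-11 and 6.32e-11) and by 6.12 ± 0.42 and 7.99 ± 0.54 in R442Q (2.17e-11 and 1.49e-11). The folate cycle had 1 risen and 2 fallen of 5 in WT and 2 and 3 in R442Q. Other pyrimidine enzymes had 3 risen and 4 fallen of 9 in WT and 4 and 3 in R442Q.

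Over the 20 zygotes and late 2-cell embryos the genes most like each member in profile were found by the mean absolute difference of centred log2 CPM among 8607 genes. Dut and Rrm2 had the closest matches, Dut with Snrpg (0.186) and Fkbp1a (0.203), and Rrm2 with Eef1a1 (0.191) and Atp5b (0.202). Tk1 was nearest to Dcaf13 (0.263) and Rpf1 (0.277), Samhd1 to Cep85 (0.295) and Qk (0.297), and Umps to Slc39a9 (0.309) and Tlk2 (0.361). Rrm1 was nearest to Tubgcp5 (0.323) and Osbpl2 (0.341), Tyms to Gm29666 (0.327) and Ints6 (0.330), and Dck to Crot (0.354) and Gas5 (0.364). Cad had the most distant match of the 9, with Emc1 (0.415) and Knop1 (0.437). None of the 18 matches was another member, which says little, since each was picked from 8607 genes. The differences were not scaled to a gene's spread, so genes that vary little between embryos can score closer.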

How the data were processed

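The estimated counts per gene symbol of zygotes and late 2-cell embryos were deposited by the authors without normalisation. The FPKM values of all 3 stages had been scaled for length and depth by the authors. RSEM and mm10 are named in the submitters' processing notes. The aligner, annotation and use of strand are not given in the sources used here. Every column was matched to a sample by its name and table. Of the estimated counts, with zeros included, 90.7% (zygotes) and 89.9% (late 2-cell) were exactly whole.

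Counts were rounded and tested with edgeR 4.0.16 in R 4.3.3, with filterByExpr at a minimum count of 10, TMM scaling and the quasi-likelihood test. The SE is the log2 fold change over the square root of F. CPM was scaled within each stage. For blastocysts limma 3.58.1 was run on log2(FPKM + 1) with a trended variance, on genes that reached an FPKM of 1 in 7 or more embryos. Such values understate changes of low genes. Calls needed a Benjamini-Hochberg adjusted p under 0.05 over all genes tested. The tests were tested on simulated data. The alternatives were RLE scaling, no filter, robust fits, DESeq2 1.42.0, limma on FPKM, a replicate block, array weights, TMM on FPKM, a pseudocount of 0.1, 1 model for both early stages and leaving out each embryo. Length and GC trends, detected genes and a block by the numbers of the sample descriptions were added after seeing the data. Every member is named. From the lists, up to 4 genes past the threshold are named in each comparison, by smallest p, and 2 most like genes for each member (mean CPM of at least 10). Shmt2, Mthfd2, Dhodh, Ppat and Hprt in zygotes and Impdh1 in the interaction were named after their values were seen. The result of 1 list gene is not reported here. The members and lists were chosen with earlier results of these data known.

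Gene lengths came from GENCODE M21 (GRCm38), which matched 98.4% of the early stages' symbols, and promoters from RefSeq (GRCm38.p6), matched for 9 of 9 members. Of their 50-base stretches, members shared at most 5.2% (Tyms, partly with Tyms-ps) with other genes, and Rrm2 5.0%.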

Additional observations from a re-analysis of the deposited data

Results flagged for a closer look

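In 2 of 54 groups of embryos 1 blastocyst stood apart from the rest of its group by its gap, and chance gives about 1 in 20. For Dck it was R442Q replicate 7, at an FPKM of 29.2, where the WT blastocysts ended at 16.7. That embryo had 8189 genes at an FPKM of at least 1, fewer than any other blastocyst, and without it limma gave 0.05 for Dck. For Umps it was R442Q replicate 3, at an FPKM of 75.6, where the WT blastocysts ended at 50.7. Neither gene passed limma's test in blastocysts. For Cad the effect of R442Q differed between late 2-cell embryos and zygotes, by a log2 of -2.29 in edgeR's quasi-likelihood test, with the dependence on single embryos and on gene length and GC content given above.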

How the results depend on the processing

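Of the members' fold changes, 411 of 441 values under other settings and 805 of 846 without 1 embryo kept their direction and their side of the threshold. The count of called members in zygotes, 2, became 1 with the replicate block, 0 with the numbers of the sample descriptions as the block and 1 in the model of 4 groups. In late 2-cell embryos, 0 became 1 with no filter, 3 with DESeq2 and 4 in the model of 4 groups, and 0 to 1 without single embryos. The rise in WT gave 4 to 7 members without single embryos, 4 of them without late 2-cell WT replicate 2. The interaction's 1 gave 0 to 1 without single embryos, 0 without the length and GC trend and 0 with detected genes as covariate. Directions turned for Tk1 in late 2-cell embryos (0.29 without the length and GC trend, -0.27 to 0.32 without single embryos), for Dut between stages in R442Q (-0.076 without that trend), for Samhd1 between stages in WT (0.028 with the description numbers as block) and for the Tk1 interaction (-0.22 with detected genes). Without single embryos the values ran from -0.31 to 0.032 for Samhd1 in zygotes, and in blastocysts from -0.10 to 0.20 for Rrm2, -0.041 to 0.14 for Tyms, -0.16 to 0.046 for Dut and -0.43 to 0.21 for Cad. None of these was called, and the cause was not tested. Whether replicate numbers pair embryos could not be decided, since the check below rests on few same-numbered embryos at each stage. The numbers in the titles and in the sample descriptions disagree for zygotes and late 2-cell embryos. Nothing says which of them, if either, marks a shared day. With the title numbers same-numbered deviations correlated at -0.06 to 0.06 in zygotes, -0.14 to 0.21 in late 2-cell embryos and -0.17 to 0.20 in blastocysts, and the own number was the best match for 1 of 5, 1 of 4 and 2 of 7. With the description numbers the correlations were -0.07 to 0.04 in zygotes and -0.14 to -0.06 in late 2-cell embryos, and the own number was the best match for 0 of 5 and 0 of 3. With the replicate block by title Dck in zygotes was 0.98 (edgeR adjusted p = 0.08), the WT rise of Rrm2 0.46 (0.0646) and the late 2-cell value of Cad -2.41 (0.0581). By description the WT rise of Rrm2 was 0.39 (0.107). Over all genes, late 2-cell calls numbered 580, and 142 (without WT replicate 2) to 891 (without R442Q replicate 3) without single embryos, 58 with the replicate block, 0 with the description numbers (2158 at an unadjusted p under 0.05), 136 without the length and GC trend, 889 with no filter, 1846 with DESeq2 and 2507 in the model of 4 groups. Zygote calls numbered 1643, 1125 to 1718 without single embryos, 1004 with the description numbers and 270 in that model, and interaction calls 1639, 1089 to 2311 without single embryos, 1085 and 958 with the title and description blocks, 2526 with DESeq2 and 936 without the trend. Dck in WT zygotes, at 3 to 5 CPM, and Cad in zygotes, at 1 to 4 CPM, rest on few reads.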
